A study of Mus musculus with 23 samples.

Results

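Amino acid transporters are membrane proteins that carry amino acids into and out of cells and organelles. The genes described here are those named in the expression table as members of the solute carrier families SLC1A, SLC3A, SLC6A, SLC7A, SLC36A, SLC38A and SLC43A. A gene was kept where it reached 0.5 CPM (the gene's share of the library's counts on a scale common to all libraries) in at least 4 of 23 libraries, and a name with several rows took the row with the highest mean. The table named 58 such genes. Of these, 38 were kept, 17 stayed below the level, 2 (SLC6A11 and SLC7A9) were at 0 in every library, and 1 (SLC6A15) had no values and was not analysed here. The kept genes are 38 of 12322 profiles at that level. At the edge of the rule, SLC7A10 reached the level in 4 libraries (highest 1.92 CPM before scaling) and was kept, and SLC6A13 reached it in 3 (highest 2.27 CPM) and was not. No other excluded gene went above 0.627 CPM in any library. The symbols are human names that the table gives to mouse genes.

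The libraries came from a mouse model of multiple myeloma, the cancer of antibody-secreting plasma cells. Tumors of IL6Myc transgenic mice, untreated, were taken from the mesenteric lymph node (MLN, 7 libraries) and the spleen (7 libraries) of 8 mice, of which 6 gave both. The controls were splenic B cells of wild-type (WT) Balb/c mice, either quiescent and untreated (4 libraries), or activated for 16 hours with LPS, the bacterial cell wall product lipopolysaccharide that drives B cells to divide, at 1 µg/ml (5 libraries). Every tissue, controls included, passed through negative selection for B cells on magnetic beads, which keeps whatever the beads do not bind. The labels call the tumor cells malignant plasma cells. They give no promoter for the transgenes, no strain for the tumor mice, no ages, and no statement of whether control libraries came from separate animals. P-values against controls therefore measure only the spread between these samples, and that between control libraries may be technical.

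Cells that grow or secrete protein need a supply of amino acids, and leucine and arginine in the lysosome and cytosol switch on the growth kinase mTORC1. SLC7A5 (LAT1) works only in a pair with the heavy chain SLC3A2 (CD98) and imports leucine and other large neutral amino acids in exchange for glutamine, which carriers such as SLC1A5 (ASCT2) bring in. When amino acids run short, the kinase GCN2 and the transcription factor ATF4 raise the transcription of many transporter genes. The SLC6A family also holds carriers of creatine, taurine and serotonin, which the name rule included with those for glycine and proline.

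The total of estimated counts lay between 13328866 and 25045814 per library. Immunoglobulin genes, which mark plasma cells, took 2.23% to 2.79% of the counts in quiescent and 0.688% to 0.842% in activated libraries. They took 1.03% to 26.3% in tumors. In 4 tumor libraries they took less than in any quiescent library. One was the MLN tumor of mouse 1611 (2.01%), and the others came from the spleens of mice 1610 (1.13%), 1612 (1.65%) and 1615 (1.03%). In these 4 the summed level of 10 plasma cell markers was 867 to 1436 CPM, against 1926 to 2339 CPM in quiescent cells. The immunoglobulin share and this sum go against their label. JCHAIN made up most of the quiescent sum (1142 to 1515 CPM, against 239 to 574 CPM), and other markers were mixed. IRF4 and TNFRSF17 lay below every quiescent library in all 4. SDC1, MZB1 and DERL3 lay above every one in the tumors of mice 1611 (75.1, 315 and 42.0 CPM) and 1612 (27.2, 358 and 34.7 CPM). Mature B cell markers (12 genes) summed to 9257 to 11721 CPM in these 4 tumors and to 247 to 6989 CPM in the other tumors. In quiescent libraries they summed to 16159 to 16942 CPM and in activated ones to 10219 to 11307 CPM. Macrophage markers (12 of 14 listed genes with values) summed to 291 to 4223 CPM in tumors, 29.4 to 259 CPM in quiescent and 26.3 to 45.1 CPM in activated libraries. In some tumors C1QB made up most of this sum. It gave 333 of 479 CPM in the MLN tumor of mouse 1610 and 1987 of 2187 CPM in the spleen tumor of mouse 1616. C1QA there (16.7 and 19.0 CPM) lay within the quiescent range (1.64 to 22.3 CPM). Erythroid markers (9 of 10) summed to over 1000 CPM in 5 tumor libraries. The Y-linked gene DDX3Y lay at 191 to 214 CPM in quiescent and at 0.0419 to 0.234 CPM in activated libraries, so that LPS and the sex of the animals cannot be told apart. In tumors DDX3Y lay at 0.896 to 19.99 CPM in mice 1612, 1613 and 1614 and at 78.1 to 182 CPM in the other 5 mice, so that tumors differ from both control groups in this respect too, and its part in the comparisons was not tested. In bulk samples fewer cells of a type and less RNA per cell cannot be told apart either.

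Transporter transcripts as a whole took 0.144% to 0.155% of the counts in quiescent, 0.29% to 0.309% in activated and 0.176% to 0.515% in tumor libraries. The lowest tumor library was thus above every quiescent one, and 1 tumor library, the spleen tumor of mouse 1616, lay far above the rest. Values below are CPM with TMM scaling, given per library. Tests used edgeR's quasi-likelihood test over all 12322 profiles with Benjamini-Hochberg adjustment, the counts of both tumors of a mouse summed (8 mice). Tumors, activated and quiescent cells went into the same fit and shared an estimate of spread for each gene. The p-values and SEs of activated against quiescent cells thus also carry the spread between tumors. The ± after a log2 change is its standard error (SE).

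Against quiescent B cells the tumors held more transcript of SLC3A2 and the leucine carriers SLC7A5, SLC7A8 and SLC43A1, of the arginine and lysine carriers SLC7A1 and SLC7A3, of SLC1A5 and SLC1A4 and of the glycine carrier SLC6A9. The leucine carrier SLC43A2 and the glutamine carrier SLC38A2 did not pass. Of the 38 transporters, 25 were higher, 2 lower and 11 did not pass. Over all profiles 37.4% were higher and 30.3% lower, 67.7% together. Against activated B cells 20 were higher, 8 lower and 10 did not pass, where 37.2% of all profiles were higher and 26.3% lower (63.4% together). In activated against quiescent cells 12 were higher, 13 lower and 13 did not pass, where 24.6% of all profiles were higher and 32.8% lower (57.3% together). The median log2 change of the 38 was 1.64, 0.98 and 0.05 in the same order, beside 0.12, 0.12 and -0.15 over all profiles. These medians and counts come from genes that had to reach the level somewhere. Of them 6, SLC1A1, SLC38A5, SLC6A12, SLC6A4 and SLC7A4 included, reached 0.5 CPM in tumor libraries only, so that some tumor had to lie above every control. Their rise in tumors over controls, given below, is thus partly set by the rule. A further 20 genes reached the level in all 23 libraries. Of those 20, 12 were higher and 2 lower in tumors than in quiescent cells, 7 higher and 5 lower in tumors than in activated cells, and 8 higher and 5 lower in activated than in quiescent cells. The 3 comparisons share groups, so that their values are set side by side and not counted against each other.

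**Figure D1:**
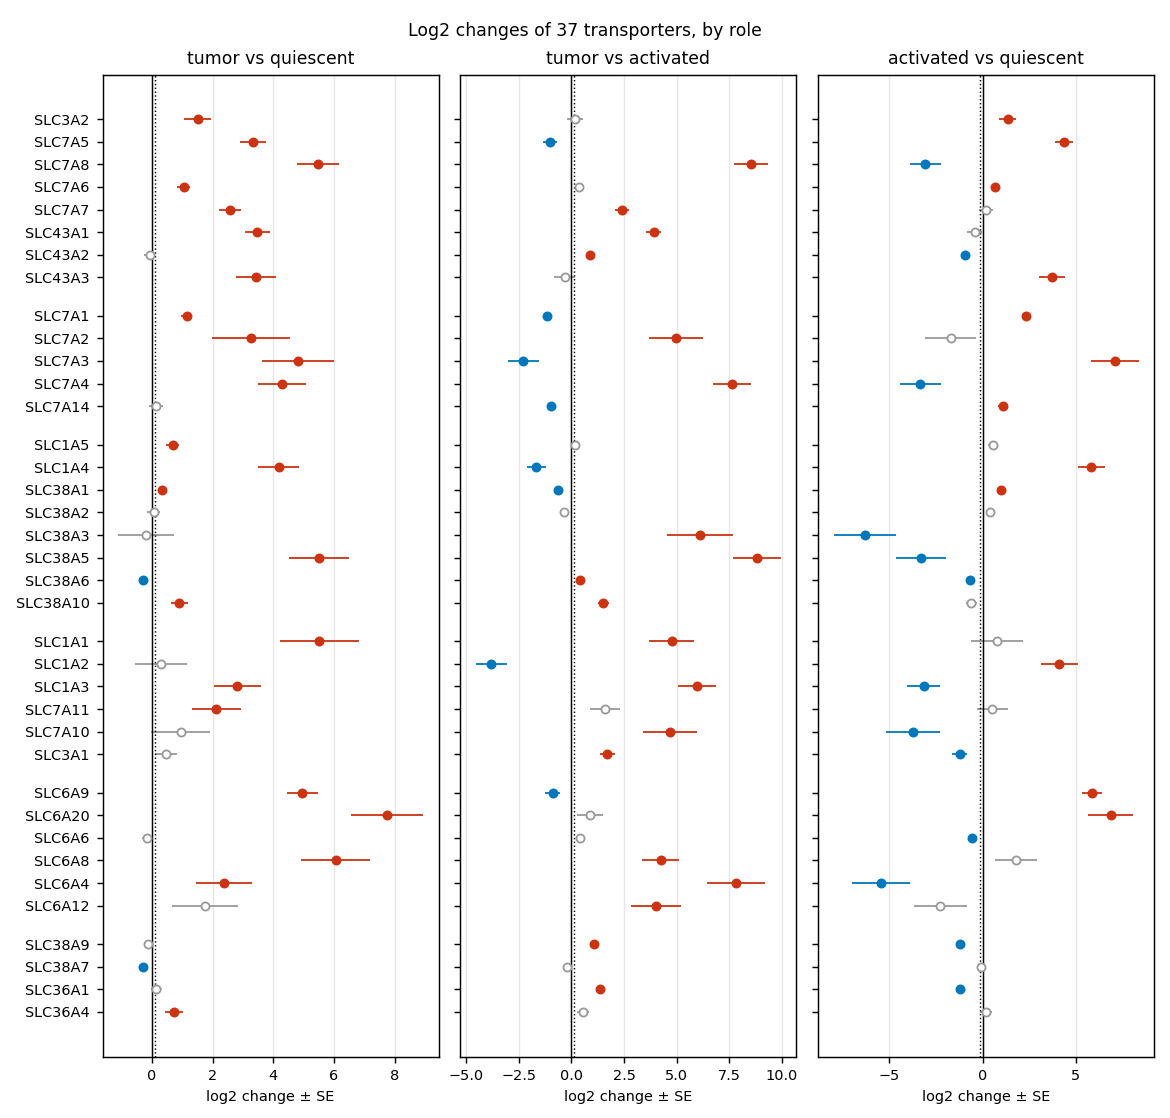
Log2 change (x axis) ± SE of 37 of the transporters (y axis, grouped by role) in tumor against quiescent, tumor against activated and activated against quiescent B cells. Red points passed as higher, blue as lower, open grey points did not pass, and the dotted line is the median of all profiles; SLC7A5, SLC7A3, SLC1A4 and SLC6A9 lie right of 0 in both panels set against quiescent cells and left of it against activated cells.

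The scaling bears on these counts. With quantile normalization and limma the median over all profiles moved to -0.125, -0.138 and -0.036, and that of the 38 transporters to 0.70, 0.15 and 0.0021. The share of higher genes among the transporters that passed was 92.6% of 27 (tumor against quiescent), 71.4% of 28 (tumor against activated) and 48% of 25 (activated against quiescent) in edgeR. It was 76.9%, 59.1% and 66.7% under quantile normalization, and 59.1% for activated against quiescent under limma with TMM. Among all profiles that passed, the share of higher ones was 55.2%, 58.6% and 42.9% in edgeR. Under quantile normalization that share was 40.1%, 38.2% and 50.2%, and under limma with TMM 43.9% for activated against quiescent. The shares of the transporters thus moved in the same direction as those of all profiles. SLC7A5, SLC3A2 and SLC1A5 kept their direction against quiescent cells under every scaling.

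SLC7A5, the light chain that carries leucine, lay at 28.0, 28.4, 29.3 and 26.3 CPM in the 4 quiescent libraries and at 632, 621, 574, 588 and 578 CPM in the 5 activated ones. MLN tumors ranged from 87.5 to 462 CPM (median 334) and spleen tumors from 86.2 to 1288 CPM (median 222). All tumor libraries lay above all quiescent ones, and 1 spleen tumor, that of mouse 1616, lay above the activated ones. Tumor mice averaged 293 ± 212 CPM (SD, n = 8) and quiescent libraries 29.0 ± 1.26 CPM (SD, n = 4) after the counts of each mouse were summed and scaled again, a log2 change of 3.34 ± 0.43 (adjusted p = 9.74e-06). Activated libraries averaged 594 ± 22.7 CPM (SD, n = 5), 4.36 ± 0.47 above quiescent ones on the log2 scale (adjusted p = 8.91e-07). Tumors were lower than activated cells by a log2 change of -1.02 ± 0.33 (adjusted p = 0.0126). That call was lost without the 4 libraries of low immunoglobulin share (log2 change -0.58, adjusted p = 0.0737), with spleen tumors alone (-0.78, adjusted p = 0.228) and with the 14 libraries taken as independent (-0.86, adjusted p = 0.0999). In the 4 libraries of low immunoglobulin share SLC7A5 lay between 86.2 and 129 CPM, below each of the other 10 tumors (150 to 1288 CPM). SLC1A4, SLC38A10 and SLC7A4 lay below those 10 tumors too, and the other 34 transporters overlapped. The share of all profiles that do not overlap was not counted.

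SLC3A2, the heavy chain that SLC7A5, SLC7A6, SLC7A7, SLC7A8, SLC7A10 and SLC7A11 share, lay at 115, 136, 130 and 124 CPM in quiescent libraries. It lay at 333, 339, 332, 338 and 335 CPM in activated libraries. MLN tumors ranged from 145 to 686 CPM (median 412) and spleen tumors from 99.95 to 1551 CPM (median 304). The activated libraries thus lay above all quiescent ones. Of the spleen tumors of low immunoglobulin share, those of mice 1612 and 1615 (121 and 115 CPM) lay within the quiescent range and that of mouse 1610 below it. The log2 change of tumors against quiescent cells was 1.51 ± 0.44 (adjusted p = 0.00696), and 1.94 without the libraries of low immunoglobulin share (adjusted p = 0.000272). Activated cells were higher than quiescent ones by 1.35 ± 0.47 (adjusted p = 0.0212), a call lost without quiescent library 1 (1.30, adjusted p = 0.0514). Between tumors and activated cells SLC3A2 did not pass (log2 change 0.17, adjusted p = 0.722).

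The light chain and the heavy chain did not move in proportion. The SLC7A5 value divided by that of SLC3A2 in the same library, which is comparable between libraries but not a ratio of molecules, lay between 0.208 and 0.244 in quiescent cells. It lay between 1.73 and 1.9 in activated cells, and tumors covered 0.436 to 1.21 without overlap with either control group. This ratio is a description and was not tested.

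**Figure D2:**
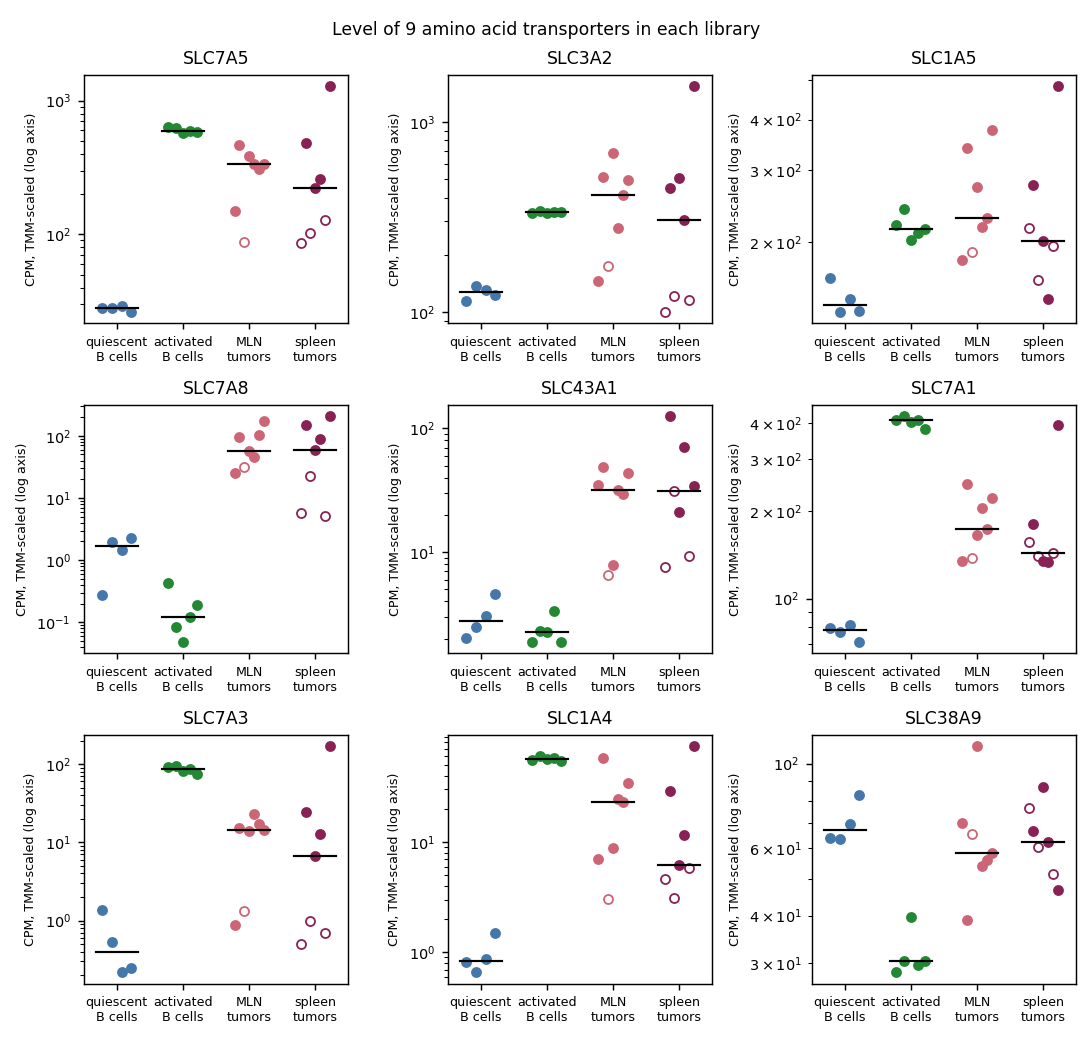
CPM with TMM scaling (y axis, log scale) of 9 transporters in each library, by group (x axis). Points are libraries, open points the 4 tumors of low immunoglobulin share, and bars the group medians; SLC7A5 is lowest in quiescent cells, and SLC7A8 and SLC43A1 are high in tumors alone.

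SLC7A8 (LAT2), the other leucine-type light chain of SLC3A2, was nearly silent in both control groups. It lay at 0.273, 1.94, 1.47 and 2.24 CPM in quiescent and at 0.429, 0.0838, 0.0482, 0.125 and 0.193 CPM in activated libraries. MLN tumors held 25.4 to 170 CPM (median 56.9) and spleen tumors 5.16 to 208 CPM (median 58.6). Every tumor library lay above every control library. The log2 change was 5.47 ± 0.70 against quiescent cells (adjusted p = 9.14e-06) and 8.54 ± 0.79 against activated cells (adjusted p = 2.16e-07). Activated cells were lower than quiescent ones (log2 change -3.06 ± 0.84, adjusted p = 0.00526). Leaving out activated library 1 moved the changes that involve activated cells to 9.20 and -3.73, both still past the threshold. Lowest among tumors stood the spleens of mice 1615 and 1610 (5.16 and 5.77 CPM), which are libraries of low immunoglobulin share. The macrophage marker sums of the 4 quiescent libraries, in the order of the values above, were 29.4, 69.96, 105 and 259 CPM, and in tumors the sum was at least 291 CPM. The spleen tumors of mice 1615 and 1610, lowest in SLC7A8, also had the lowest sums of the tumors (291 and 384 CPM). Elsewhere the order could differ. The MLN tumor of mouse 1610 had a sum of 479 CPM, mostly C1QB, and 93.9 CPM of SLC7A8. That of mouse 1609 had a sum of 1836 CPM and 25.4 CPM of SLC7A8. The part of macrophages in the SLC7A8 level was not tested.

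SLC7A6 and SLC7A7, the light chains that exchange cationic for neutral amino acids, were both higher in tumors than in quiescent cells. SLC7A7 lay at 9, 6.14, 5.61 and 8.29 CPM in quiescent and at 10.6, 9.85, 6.7, 9.68 and 6.22 CPM in activated libraries. Tumors held 12.9 to 152 CPM, above every control library. Its log2 change was 2.58 ± 0.37 against quiescent (adjusted p = 2.7e-05) and 2.39 ± 0.34 against activated cells (adjusted p = 1.49e-05). Lowest in SLC7A7 among tumors were the spleens of mice 1615 and 1610 (12.9 and 19.5 CPM), also lowest in the macrophage marker sum. The spleen tumor of mouse 1613 had the highest sum (4223 CPM) and 51.1 CPM of SLC7A7. That of mouse 1616 had a sum of 2187 CPM and 152 CPM of SLC7A7. The part of macrophages in the SLC7A7 level was not tested. SLC7A6 rose by 1.04 ± 0.22 in tumors against quiescent cells (adjusted p = 0.00058). It rose by 0.68 ± 0.23 in activated cells (adjusted p = 0.0169, and 0.0509 without quiescent library 1). It did not pass between tumors and activated cells (log2 change 0.36, adjusted p = 0.116).

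The SLC43 family carries large neutral amino acids without a heavy chain (SLC43A1 and SLC43A2), and SLC43A3 carries purine bases. SLC43A1 (LAT3) lay at 2.02, 2.47, 3.05 and 4.55 CPM in quiescent and at 1.87, 2.31, 2.27, 3.37 and 1.88 CPM in activated libraries, and at 6.58 to 126 CPM in tumors. Each tumor lay above each control. The log2 change was 3.48 ± 0.41 against quiescent (adjusted p = 3.69e-06) and 3.90 ± 0.38 against activated cells (adjusted p = 3.66e-07). Without the 5 tumor libraries whose erythroid markers summed to over 1000 CPM, a set chosen after the data were seen, it was 2.78 and 3.11, both past the threshold. SLC43A2 (LAT4) lay at 94.5 to 106 CPM in quiescent and 48.2 to 60.5 CPM in activated cells, where it was lower (log2 change -0.94 ± 0.20, adjusted p = 0.00064). In tumors it ranged from 35.9 to 161 CPM, higher than in activated cells (0.87 ± 0.17, adjusted p = 0.000381) and not past the threshold against quiescent ones (-0.07, adjusted p = 0.724).

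SLC43A3 lay at 2.67, 1.28, 1.14 and 4.74 CPM in quiescent and at 41.9, 36.8, 27.9, 33.3 and 29.1 CPM in activated libraries. MLN tumors held 3.0 to 29.5 CPM and spleen tumors 3.5 to 112 CPM. It was higher than in quiescent cells both in tumors (log2 change 3.42 ± 0.66, adjusted p = 0.000329) and in activated cells (3.74 ± 0.69, adjusted p = 0.000216). Against activated cells the tumors did not pass (-0.32, adjusted p = 0.584), but they were lower by -1.82 without the erythroid-rich libraries (adjusted p = 0.000713).

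The arginine and lysine carriers SLC7A1 and SLC7A3 were high in activated cells. SLC7A1 (CAT1) lay at 79.1, 77.2, 81.5 and 71.0 CPM in quiescent and at 409, 423, 404, 409 and 383 CPM in activated libraries, with tumors at 134 to 393 CPM between them. The 3 groups overlapped only in the spleen tumor of mouse 1616 (393 CPM). Its log2 change was 1.15 ± 0.18 in tumors against quiescent cells (adjusted p = 5.34e-05), 2.33 ± 0.20 in activated against quiescent cells (adjusted p = 7.74e-08) and -1.19 ± 0.15 in tumors against activated cells (adjusted p = 7.37e-06).

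SLC7A3 (CAT3), a close relative best known from the brain, lay at 1.36, 0.536, 0.218 and 0.249 CPM in quiescent and at 92.7, 93.2, 82.5, 86.9 and 74.6 CPM in activated libraries. MLN tumors held 0.876 to 22.8 CPM (median 14.4) and spleen tumors 0.498 to 169 CPM (median 6.73). The tumors of low immunoglobulin share (0.498 to 1.32 CPM) and the MLN tumor of mouse 1609 overlapped with quiescent cells, and the spleen tumor of mouse 1616 lay above the activated ones. Activated cells were higher than quiescent ones by 7.10 ± 1.29 on the log2 scale (adjusted p = 0.00019), and by 7.86 without quiescent library 1. Tumors were higher than quiescent cells by 4.82 ± 1.18 (adjusted p = 0.00201), by 3.67 without mouse 1616 and by 5.58 without quiescent library 1, with the call kept. Tumors were lower than activated cells by a log2 change of -2.28 ± 0.75 (adjusted p = 0.0141) and of -3.54 without mouse 1616. That call was lost with spleen tumors alone (-1.58, adjusted p = 0.221) and with the 14 libraries taken as independent (-2.01, adjusted p = 0.0514).

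SLC7A4, a relative of these carriers, was kept through tumor libraries alone, so that its rise there is partly set by the rule. It lay at 0 to 0.218 CPM in quiescent cells and had 1 count in all activated libraries together. Tumors held 0.214 to 10.3 CPM, and it was higher in tumors than in quiescent cells (log2 change 4.29 ± 0.78, adjusted p = 0.000198). Against activated cells the ratio of counts was 309 (95% interval 55.3 to 12232, counting error only; edgeR adjusted p = 3.6e-06), and the fitted log2 change of 7.63 went to 9.09 without activated library 1. Activated cells were lower than quiescent ones (-3.34 ± 1.09, adjusted p = 0.015; -4.80 without activated library 1). SLC7A2 (CAT2), which feeds arginine to nitric oxide synthase and arginase in macrophages, lay at 34.1 CPM in the MLN tumor of mouse 1611 and at 0 to 4.82 CPM in the other tumors. Quiescent libraries held 0.0544 to 0.81 CPM and activated ones 0 to 0.335 CPM. It was higher in tumors than in quiescent cells (3.27 ± 1.27, adjusted p = 0.0317). That call was lost without mouse 1611 (1.62, adjusted p = 0.104) and without quiescent library 1, 2 or 3 (adjusted p = 0.0807, 0.0646 and 0.0825), and the value was 3.98 without quiescent library 4. Against activated cells SLC7A2 was higher by 4.97 ± 1.30 (adjusted p = 0.00319), by 3.23 without mouse 1611 and by 5.95 without activated library 2. SLC7A14 was higher in activated than in quiescent cells (1.10 ± 0.26, adjusted p = 0.00171) and lower in tumors than in activated cells (-0.96 ± 0.21, adjusted p = 0.00082), at 2.06 to 9.12 CPM throughout.

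SLC1A5 (ASCT2), which brings in glutamine, gave smaller changes than SLC7A5. It lay at 163, 134, 144 and 135 CPM in quiescent and at 220, 241, 202, 210 and 215 CPM in activated libraries. MLN tumors held 181 to 378 CPM (median 228.5) and spleen tumors 145 to 485 CPM (median 201). The activated libraries lay above the quiescent ones, and 2 spleen tumors (mice 1612 and 1614, 161 and 145 CPM) lay within the quiescent range. Tumors were higher than quiescent cells by 0.68 ± 0.21 (adjusted p = 0.00869), and by 0.49 without mouse 1616 (adjusted p = 0.00151). Tumors against activated cells did not pass (0.15, adjusted p = 0.507). Activated against quiescent cells gave 0.53 ± 0.22 and did not pass (adjusted p = 0.0505). It passed in 7 of its 17 alternatives, among them DESeq2 (0.0204) and limma (0.0351), with adjusted p from 7.47e-06 to 0.106 over all 17.

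SLC1A4 (ASCT1), which carries alanine, serine and cysteine, moved far more. It lay at 0.818, 0.66, 0.871 and 1.5 CPM in quiescent and at 55.5, 59.7, 56.4, 58.3 and 53.8 CPM in activated libraries, and at 3.04 to 73.8 CPM in tumors. Every tumor lay above every quiescent library. The log2 change was 5.84 ± 0.73 in activated against quiescent cells (adjusted p = 4.52e-06) and 4.18 ± 0.67 in tumors against quiescent cells (adjusted p = 6.93e-05). Tumors were lower than activated cells (-1.66 ± 0.46, adjusted p = 0.00454), by -2.26 without mouse 1616, and without the libraries of low immunoglobulin share the call was lost (-1.01, adjusted p = 0.0539). The SLC1A4 value divided by that of SLC1A5 in the same library was 0.00491 to 0.0111 in quiescent, 0.248 to 0.279 in activated and 0.0161 to 0.168 in tumor libraries, with no overlap between the groups.

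The sodium-coupled carriers of the SLC38 family bring in glutamine and other neutral amino acids. SLC38A1 (SNAT1) lay at 148, 128, 135 and 130 CPM in quiescent and at 276, 283, 272, 302 and 244 CPM in activated libraries, with tumors at 94.3 to 218 CPM. It was higher in activated than in quiescent cells (0.97 ± 0.09, adjusted p = 2.25e-07) and lower in tumors than in activated ones (-0.63 ± 0.08, adjusted p = 3.35e-06). The rise in tumors over quiescent cells (0.34 ± 0.08, adjusted p = 0.00192) was lost without the libraries of low immunoglobulin share, with spleen tumors alone and with 14 independent libraries. SLC38A2 (SNAT2), known as a gene that amino acid shortage raises, passed in none of the 3 comparisons in the main edgeR fit, with adjusted p-values of 0.811, 0.137 and 0.152. The activated libraries (400.4 to 416 CPM) nevertheless all lay above the quiescent ones (279 to 320 CPM), and tumors covered 207 to 878 CPM. SLC38A2 passed as higher in activated than in quiescent cells in 3 of 17 alternatives. As lower in tumors than in activated cells it passed in 4 of 25. SLC38A10, whose substrates are less well known, was higher in tumors than in quiescent (0.90 ± 0.28, adjusted p = 0.0106) and activated cells (1.51 ± 0.27, adjusted p = 0.000137). The first of these calls was lost with spleen tumors alone (1.05, adjusted p = 0.0583). Its libraries of low immunoglobulin share held 133 to 155 CPM, below all other tumors (198 to 854 CPM) and below the quiescent libraries (161 to 167 CPM).

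SLC38A5 (SNAT5), a glutamine and histidine carrier, was also kept through tumor libraries alone. It lay at 0.109 to 0.312 CPM in quiescent cells and had 2 counts in the activated libraries together. MLN tumors held 0.316 to 11.8 CPM and spleen tumors 1.22 to 56.5 CPM. The log2 change against quiescent cells was 5.52 ± 0.99 (adjusted p = 0.000186) and went to 2.35 without the erythroid-rich libraries (adjusted p = 0.0057). Against activated cells the ratio of counts was 619 (95% interval 171 to 5113, counting error only; edgeR adjusted p = 7.04e-06). The lower level in activated than in quiescent cells (-3.31, adjusted p = 0.0445) was lost when any of 7 single control libraries was left out, with adjusted p between 0.052 and 0.0908. SLC38A3 lay at or below 1.33 CPM everywhere and had 0 counts in the activated libraries. It was at least 12.7-fold higher in tumors and at least 15.1-fold higher in quiescent cells, with a floor of 3 counts over the activated group, and edgeR adjusted p = 0.0043 and 0.00563. Its fitted log2 change between tumors and activated cells was 6.12, 5.44 without mouse 1615 with the call kept, and -0.0061 under quantile normalization. SLC38A6 was lower than in quiescent cells both in tumors (-0.29 ± 0.09, adjusted p = 0.00891) and in activated cells (-0.67 ± 0.10, adjusted p = 1.94e-05), and higher in tumors than in activated cells (0.38 ± 0.08, adjusted p = 0.000803).

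SLC7A11 (xCT), which trades glutamate for cystine, the source of cysteine for glutathione, lay at 3.65, 4.41, 2.5 and 2.06 CPM in quiescent and 5.46, 4.99, 4.44, 5.44 and 3.47 CPM in activated libraries. The MLN tumor of mouse 1611 stood at 80.0 CPM and the spleen tumor of mouse 1616 at 42.1 CPM, with the other tumors at 0.426 to 14.8 CPM. The rise in tumors over quiescent cells (2.12 ± 0.81, adjusted p = 0.0288) was lost without mouse 1611 (1.36, adjusted p = 0.0637) and without quiescent library 1, 3 or 4 (adjusted p = 0.0551, 0.0705 and 0.0749). Tumors against activated cells (1.59, adjusted p = 0.0613) and activated against quiescent cells (0.53, adjusted p = 0.603) did not pass.

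The glutamate carriers SLC1A1, SLC1A2 and SLC1A3 each followed a course of their own. SLC1A2 (GLT-1) was highest in activated cells. It lay at 0.6, 0.165, 0.762 and 0 CPM in quiescent and at 8.07, 7.17, 6.17, 7.35 and 5.98 CPM in activated libraries, above every tumor (0 to 2.35 CPM). The log2 change was 4.11 ± 1.00 in activated against quiescent cells (adjusted p = 0.00224) and -3.82 ± 0.74 in tumors against activated cells (adjusted p = 0.000289; -4.41 without mouse 1611). SLC1A3 (GLAST) lay at 1.31, 0.577, 0.218 and 0.686 CPM in quiescent cells, at 0.377 CPM in activated library 2 and at 0 in the other 4, and at 0.4 to 16 CPM in tumors. It was higher in tumors than in quiescent (2.81 ± 0.78, adjusted p = 0.00473) and activated cells (5.97 ± 0.88, adjusted p = 2.57e-05), and lower in activated than in quiescent cells (-3.16 ± 0.90, adjusted p = 0.00651). Without activated library 2 the last 2 values were 10.04 and -7.22, and without the erythroid-rich libraries the first was 1.98 (adjusted p = 0.0522). SLC1A1 (EAAT3), kept through tumor libraries alone, had 4 counts in all quiescent and 12 in all activated libraries, and tumors held 0 to 9.7 CPM. It was higher in tumors than in quiescent cells (5.52 ± 1.29, adjusted p = 0.00147; 9.23 without quiescent library 4) and than in activated ones (4.77 ± 1.06, adjusted p = 0.000997; 4.15 without mouse 1616).

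SLC3A1, the heavy chain that pairs with SLC7A9 in kidney and gut, lay at 0.377 to 3.82 CPM, while SLC7A9 itself was at 0. SLC3A1 was lower in activated than in quiescent cells (-1.22 ± 0.40, adjusted p = 0.0149, and 0.072 without quiescent library 3) and higher in tumors than in activated cells (1.70 ± 0.36, adjusted p = 0.000597; -0.86 under quantile normalization). SLC7A10, a carrier of small neutral amino acids, reached 1.85 CPM in the MLN tumor of mouse 1613 and had 1 count in the activated libraries. The ratio of tumor to activated counts was 43.4 (95% interval 7.59 to 1731; edgeR adjusted p = 0.00473; fitted log2 change 4.69, 6.19 without activated library 5 and -0.17 under quantile normalization). The lower level in activated than in quiescent cells (-3.74, adjusted p = 0.0364) rested on quiescent library 2 (0.577 CPM): without it the change was -0.84 (adjusted p = 0.706). It also missed the threshold without activated library 1, 2, 3 or 4 (adjusted p from 0.0677 to 0.073), and was -5.24 without activated library 5 (adjusted p = 0.0384).

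In the SLC6 family, SLC6A9 (GlyT1), which imports glycine, went from 0.436, 0.949, 0.653 and 1.31 CPM in quiescent to 57.7, 49.5, 50.8, 49.6 and 46.1 CPM in activated libraries, with tumors at 2.23 to 117 CPM. Every tumor lay above every quiescent library. The log2 change was 5.86 ± 0.55 in activated against quiescent cells (adjusted p = 2.1e-07) and 4.96 ± 0.52 in tumors against quiescent cells (adjusted p = 1.37e-06). The lower level in tumors than in activated cells (-0.90 ± 0.34, adjusted p = 0.029) was lost without mouse 1615 (adjusted p = 0.05004), without activated library 1 (0.0611), without the libraries of low immunoglobulin share (0.272) and in 3 other alternatives. SLC6A20, a proline carrier, was the transporter with the largest log2 change in tumors against quiescent cells. It had 1 count in all quiescent libraries, lay at 2.3, 1.84, 2.46, 1.91 and 2.03 CPM in activated ones and at 0.297 to 11.9 CPM in tumors. The ratio of counts to quiescent cells was 283 (95% interval 50.8 to 11207) in tumors and 155 (27.6 to 6152) in activated cells, with edgeR adjusted p = 4.4e-05 and 0.000129. The fitted log2 changes of 7.76 and 6.87 went to 9.65 and 8.76 without quiescent library 2, which held the 1 count.

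SLC6A8 imports creatine and SLC6A6 taurine. SLC6A8 lay at 0 to 0.164 CPM in quiescent, 0.145 to 0.545 CPM in activated and 0.0995 to 24.7 CPM in tumor libraries. It was higher in tumors than in quiescent (6.06 ± 1.13, adjusted p = 0.00025) and activated cells (4.24 ± 0.87, adjusted p = 0.00051; 3.58 without mouse 1611, whose MLN tumor held the highest value). SLC6A6 was lower in activated (103 to 122 CPM) than in quiescent cells (145 to 178 CPM; -0.56 ± 0.20, adjusted p = 0.026). That call missed the threshold without quiescent library 1 (0.0724) and without activated library 1 or 4 (0.0534 and 0.0524). SLC6A4 (serotonin) and SLC6A12 (betaine) were at or below 0.327 CPM in all controls and were kept through tumor libraries alone. SLC6A4 had 0 counts in activated libraries and was at least 40.2-fold higher in tumors (edgeR adjusted p = 0.000292). In activated cells it was at least 8.32-fold lower than in quiescent cells (adjusted p = 0.00892). The ratio was 20.4 (95% interval 6.84 to 100.3) for SLC6A12, which had 3 counts there (adjusted p = 0.00814; fitted log2 change 4.02, 3.38 without mouse 1611, 4.94 without activated library 1 and -0.31 under quantile normalization). The rise of SLC6A4 over quiescent cells (2.37, adjusted p = 0.0365) was lost without mouse 1609, 1612 or 1613 (adjusted p = 0.057, 0.0552 and 0.0557) and without any 1 of the quiescent libraries (0.0515 to 0.095).

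A pair of lysosomal members was lower in activated than in quiescent cells. SLC38A9, the arginine sensor on the lysosome that signals to mTORC1, lay at 64.0, 63.5, 69.6 and 82.6 CPM in quiescent and at 28.4, 30.4, 39.7, 29.7 and 30.5 CPM in activated libraries. SLC36A1 (PAT1), a proton-coupled exporter of small amino acids from the lysosome, lay at 41.1, 38.7, 40.9 and 35.1 CPM in quiescent and at 19.1, 16.1, 16.5, 17.5 and 19.7 CPM in activated libraries. Neither gene's control groups overlapped, and tumors (38.9 to 111 CPM and 24.6 to 77.9 CPM) spanned the quiescent level. SLC38A9 changed by -1.20 ± 0.16 (adjusted p = 8.76e-06) and SLC36A1 by -1.19 ± 0.19 (adjusted p = 6.09e-05) in activated against quiescent cells. Against activated cells the tumors were higher by 1.07 ± 0.14 (adjusted p = 8.41e-06) and 1.34 ± 0.17 (adjusted p = 6.31e-06). Against quiescent cells they did not pass (-0.13, adjusted p = 0.449, and 0.15, adjusted p = 0.471). SLC38A7, which exports glutamine from the lysosome, and SLC36A4 gave small changes in tumors against quiescent cells (-0.29 and 0.73). Both calls (adjusted p = 0.039 and 0.0418) were lost when single mice or libraries were left out: mouse 1609 or 1615 or quiescent library 1, 3 or 4 for SLC38A7 (adjusted p = 0.0618 to 0.119), and quiescent library 1, 2 or 3 or any 1 of 6 mice for SLC36A4 (0.0546 to 0.127).

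Promoter sequence was available for 26 of the 38 transporters in RefSeq windows of 250 bases before to 50 bases after the start site (GRCm38.p6, an older build than that of the counts). Among those without a window, and so not searched, were SLC7A5, SLC1A5, SLC7A3, SLC6A8, SLC43A3, SLC38A3, SLC38A1, SLC7A4, SLC6A20, SLC7A2 and SLC6A6. The windows were searched on both strands for TGATGNAA, a form of the element that ATF4 binds with its partners, and for CACGTG, the E-box that MYC and the lysosomal factor TFEB bind. TGATGNAA was in a window of 3 of the 26 genes, SLC1A4, SLC7A11 and SLC7A7, and of 4.51% of all 27025 genes. CACGTG was in a window of 5 of the 26, SLC36A1, SLC38A5, SLC38A7, SLC43A1 and SLC7A14, and of 8.09% of all genes. The 250 bases before the start are shown 5′ to 3′ for SLC7A11 (chr3:50443614-50443863, minus strand), which holds 2 copies of the first motif, and for SLC43A1 (chr2:84840073-84840322, plus strand) and SLC36A1 (chr11:55204090-55204339, plus strand), which hold the second. Capitals mark the matches that lie wholly before the start.
SLC7A11: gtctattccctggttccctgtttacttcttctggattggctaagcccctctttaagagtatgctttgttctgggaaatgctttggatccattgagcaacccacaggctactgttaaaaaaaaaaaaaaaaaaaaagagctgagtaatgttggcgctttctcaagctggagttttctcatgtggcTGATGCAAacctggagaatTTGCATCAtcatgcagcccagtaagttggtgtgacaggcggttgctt
SLC43A1: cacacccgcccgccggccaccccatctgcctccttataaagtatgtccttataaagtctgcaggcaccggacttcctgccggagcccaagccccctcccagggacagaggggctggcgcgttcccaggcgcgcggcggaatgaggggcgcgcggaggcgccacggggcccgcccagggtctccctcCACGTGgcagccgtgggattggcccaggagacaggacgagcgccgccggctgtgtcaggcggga
SLC36A1: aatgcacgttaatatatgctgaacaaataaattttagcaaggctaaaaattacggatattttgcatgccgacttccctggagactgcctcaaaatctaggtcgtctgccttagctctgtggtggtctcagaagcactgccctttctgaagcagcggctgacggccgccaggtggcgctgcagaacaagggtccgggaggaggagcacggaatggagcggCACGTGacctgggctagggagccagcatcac
In SLC7A11 the matches begin 66 and 47 bases before the start, in SLC43A1 64 bases and in SLC36A1 31 bases before it. A second match in SLC36A1 crosses the start site. Of the 3 genes with TGATGNAA, SLC1A4 rose in activated cells, while SLC7A11 and SLC7A7 did not pass there. Of the 5 with CACGTG, SLC7A14 rose in activated cells, SLC36A1 and SLC38A5 fell, and SLC43A1 and SLC38A7 did not pass. A match is a description of letters and not of binding.

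No transporter passed between MLN and spleen tumors. edgeR called 0 of 38 transporters and 0% of all profiles, with a smallest adjusted p of 0.889 among the transporters. In edgeR, 7 transporters had an unadjusted p under 0.05, and the share of all profiles at that p was not counted. Among them were SLC38A5, SLC38A7, SLC43A3 and SLC6A20 with higher values in spleen tumors and SLC7A10 and SLC7A14 with higher values in MLN tumors. DESeq2 called 28 profiles in all (22 higher and 6 lower in MLN tumors) and no transporter, and limma called none of either. Blocking on the mouse, for the 6 mice with both tumors, edgeR called 0 transporters too. Within mice, SLC7A10 and SLC7A14 were higher in the MLN tumor in 6 of 6 mice, and SLC43A3, SLC6A20 and SLC38A7 higher in the spleen tumor in 5 of 6. The share of all profiles with such an order was not counted, and SLC7A10 held only 0.0442 to 0.182 CPM in spleen tumors. SLC7A5 was higher in the MLN tumor in 4 of 6 mice, by median 0.59 on the log2 scale (range -2.46 to 2.42).

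Tumors of the same site differed widely. In the spleen tumor of mouse 1616, 13 of the 38 transporters had their highest tumor value, among them SLC7A5 (1288 CPM), SLC3A2 (1551 CPM), SLC1A5 (485 CPM), SLC1A4 (73.8 CPM), SLC7A1 (393 CPM), SLC7A3 (169 CPM), SLC38A2 (878 CPM), SLC6A9 (117 CPM) and SLC7A8 (208 CPM). The share of all profiles with their highest tumor value in this library was not counted, so the 13 is not shown to be particular to transporters. The MLN tumor of the same mouse held 334 CPM of SLC7A5 and 14.4 CPM of SLC7A3. Both tumors of this mouse were rich in plasma cell markers (24063 and 28321 CPM summed, against 867 to 20189 CPM in the others). The TMM factors of these 2 libraries were 0.751 and 0.741, which raise their CPM. Their summed level of 14 genes of the response to amino acid scarcity was 2707 CPM in the spleen tumor and 1198 CPM in the MLN tumor, against 752 to 1454 CPM in the other tumors and 2304 to 2398 CPM in activated cells. Whether that response has a part in the transporter levels was not tested.

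**Figure D3:**
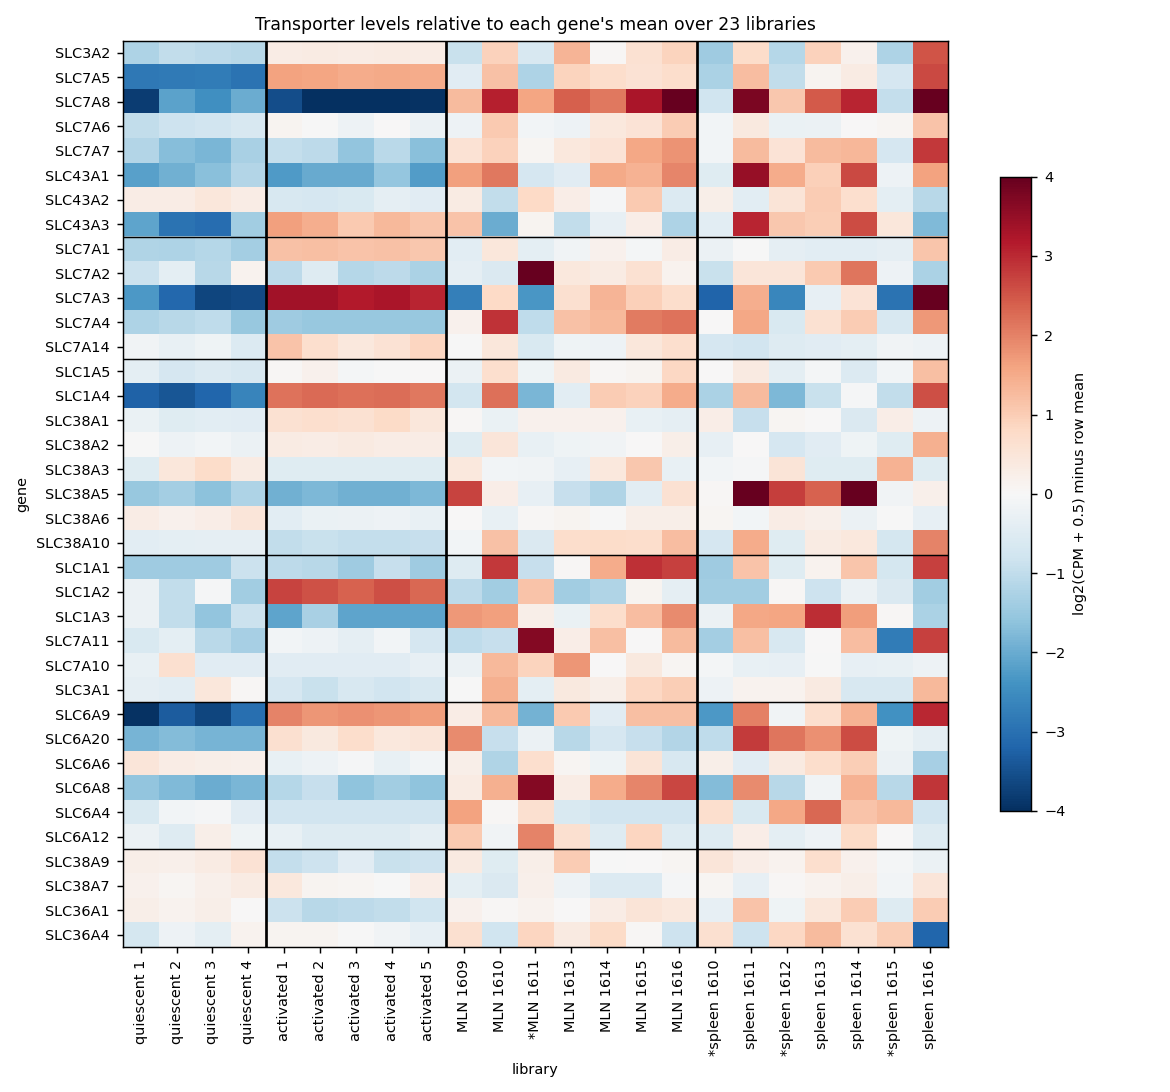
Level of 37 of the transporters (rows, by role) in the 23 libraries (columns, by group), as log2(CPM + 0.5) minus the mean of the row. Asterisks mark the 4 tumors of low immunoglobulin share; the spleen tumor of mouse 1616 is dark red for SLC7A5, SLC3A2, SLC7A3 and SLC1A4, and the MLN tumor of mouse 1611 for SLC7A2 and SLC7A11.

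Other transporters followed other libraries. SLC38A5, SLC43A3 and SLC6A20 had each of the 5 erythroid-rich tumors (from the MLN of mouse 1609 and the spleens of mice 1611 to 1614) above all 9 other tumors. That set was chosen after the data were seen. The other 35 transporters overlapped, and the share of all profiles that do not overlap was not counted. For SLC38A5 the values were 9.28 to 56.5 CPM against 0.316 to 2.38 CPM, for SLC43A3 26.4 to 112 CPM against 3.0 to 18.4 CPM, and for SLC6A20 5.88 to 11.9 CPM against 0.297 to 1.12 CPM. The summed erythroid markers were 1047 to 4873 CPM in those 5 tumors and 105 to 416 CPM in the others. Macrophage markers summed to 1722 to 4223 CPM in the same 5 and to 291 to 2948 CPM in the others. The part of either cell type in these levels was not tested. Without the 5 libraries all 3 genes stayed higher in tumors than in quiescent cells (log2 changes 2.35, 2.004 and 5.12). SLC6A20 then turned from 0.89 (adjusted p = 0.223) to -1.79 (adjusted p = 0.000867) against activated cells. The MLN tumor of mouse 1611, of low immunoglobulin share, had the highest SLC7A11, SLC7A2, SLC6A8, SLC1A2 and SLC6A12 of all tumors. Its macrophage and neutrophil markers summed to 1298 and 559 CPM, the latter the highest of the MLN tumors.

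**Figure D4:**
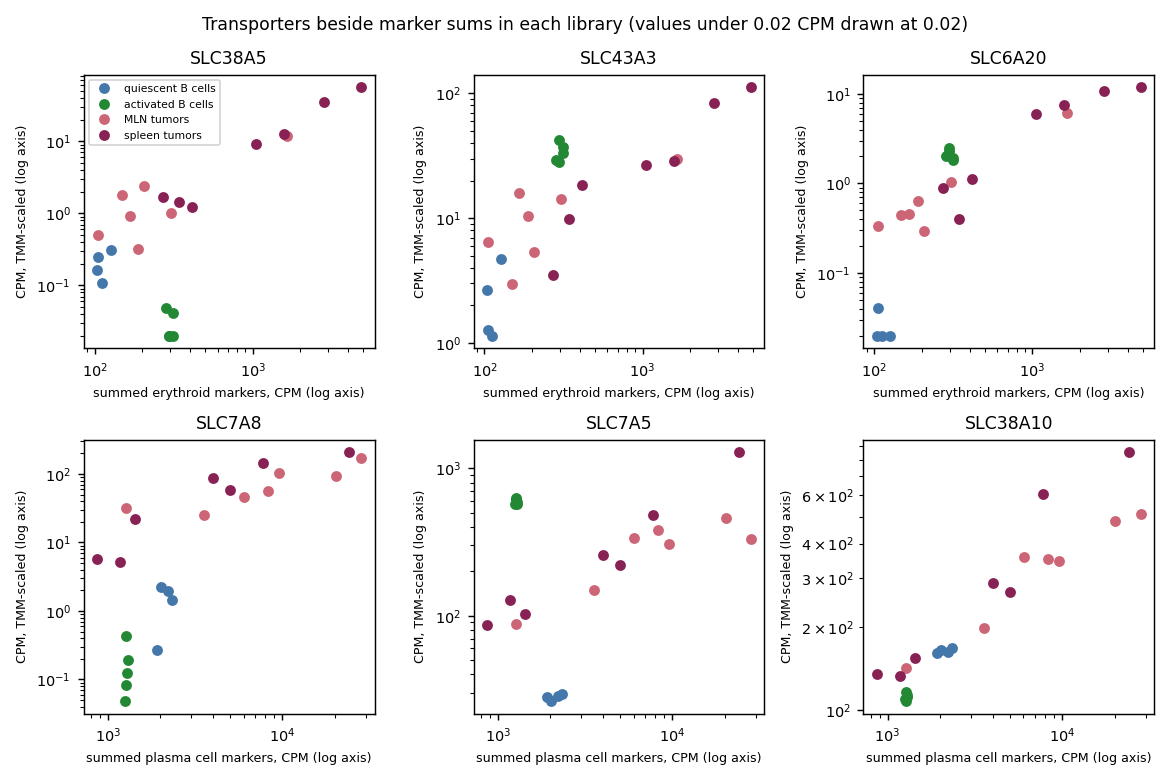
Level of 6 transporters (y axis, CPM, log scale) beside the summed CPM of 9 erythroid markers (top) or 10 plasma cell markers (bottom; x axes, log scale) in each of the 23 libraries. In the top row the 5 tumors to the right of 1000 CPM are the highest tumors. In the bottom row SLC7A5 and SLC38A10 are, among tumors, lowest in the 4 with the lowest plasma cell marker sums.

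In activated cells the erythroid sum of 285 to 315 CPM was nearly all TFRC, the transferrin receptor, which is also a gene of dividing cells (284 to 314 CPM). No correlation is given, because tumors share depth, scaling and cell mixture.

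Other genes of amino acid use were read from lists made with earlier results of these data known. In the scarcity response list (ATF4, its partners and targets and the kinase GCN2), 11 of 14 genes were higher and none lower in activated than in quiescent cells, 8 higher and 1 lower in tumors than in quiescent cells, and 1 higher and 10 lower in tumors than in activated cells. The percentages over all profiles are those given above for each comparison. CHAC1, which breaks down glutathione, and TRIB3, an inhibitor of ATF4, changed most in activated cells (log2 changes 7.52 and 7.14, adjusted p = 1.73e-05 and 1.79e-06). TRIB3 held 153 to 180 CPM in activated cells, 0.825 to 1.56 CPM in quiescent cells and 0.362 to 20.2 CPM in tumors. ASNS, the asparagine synthetase, was at 2.24 to 4.53 CPM in quiescent, 239 to 260 CPM in activated and 11.1 to 474 CPM in tumor libraries.

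In the list of other carriers, mostly mitochondrial and lysosomal, 18 of 24 genes were tested. In tumors against quiescent cells 9 were higher and 4 lower, in tumors against activated cells 8 and 4, and in activated against quiescent cells 7 and 5. SLC17A7, a vesicular glutamate carrier, had 0 counts in quiescent cells and was at least 26.2-fold higher in tumors and at least 9.19-fold higher in activated cells (adjusted p = 0.00129 and 0.00946). SLC15A2, a peptide carrier, was higher in tumors than in quiescent (3.38, adjusted p = 4.58e-06) and activated cells (3.83, adjusted p = 4.3e-07). SLC15A3, a lysosomal carrier of histidine and peptides, was higher in activated than in quiescent cells (3.23, adjusted p = 6.55e-05). Of 13 genes of glutamine and glutathione use, 8 were higher and none lower in tumors than in quiescent cells, 2 higher and 5 lower in tumors than in activated cells, and 9 higher and 1 lower in activated than in quiescent cells. GPT2, an alanine transaminase, rose over quiescent cells by 1.92 in tumors and 3.18 in activated cells (adjusted p = 0.00417 and 0.000181). Of 8 genes of branched-chain amino acid breakdown, 4 were higher and 1 lower in tumors than in quiescent cells, 1 higher and 4 lower in tumors than in activated cells, and 6 higher and 1 lower in activated than in quiescent cells. BCAT1, the transaminase that starts leucine breakdown in the cytosol, changed most of these, by 3.82 in tumors and 5.68 in activated cells over quiescent ones (adjusted p = 1.22e-06 and 2.79e-08).

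Among 21 tested genes of leucine and arginine sensing, 5 were higher and 6 lower in tumors than in quiescent cells. Against activated cells 8 were higher and 6 lower in tumors, and in activated against quiescent cells 4 were higher and 7 lower. FNIP2, a partner of folliculin in mTORC1 signalling, changed most in tumors (4.72 over quiescent and 6.21 over activated cells, adjusted p = 1.73e-05 and 8.01e-07). SESN2, the leucine sensor that ATF4 raises, was higher in activated than in quiescent cells (2.90, adjusted p = 3.73e-07) and lower in tumors than in activated cells (-1.58, adjusted p = 1.17e-05). SESN1, its relative, was lower in activated than in quiescent cells (-1.82, adjusted p = 0.000629).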

How the data were processed

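RNA-seq of total RNA with a stranded kit was analysed from 14 tumor and 9 control libraries. The deposited table holds estimated counts per gene: its values are not whole and column totals differ, although it is named as TPM. Trim Galore 0.4.0, DESeq2 and GRCm39 are named per the submitters' processing notes, and the sources used here do not name the quantifier. Each column was matched to a sample by its name, with 0 columns left unmapped and 0 rows with values but no gene name. Identical entries were merged to 15881 profiles with values above 0, and counts were rounded. Genes with near-identical copies may share reads.

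Differences were tested with edgeR 4.0.16 (quasi-likelihood, TMM factors, R 4.3.3) over 12322 profiles at 0.5 CPM in at least 4 libraries, with Benjamini-Hochberg adjustment and a threshold of 0.05. The counts of both tumors of a mouse were summed against controls, and the 14 libraries were used singly for MLN against spleen. Tumors and both control groups shared the same fit and its estimate of spread. The SE is the log2 change divided by the root of the F statistic. DESeq2 1.42.0 and limma 3.58.1 were alternatives. The scripts were tested on simulated data. Mouse numbers pair the tumors, per the series' design text. The correlation of deviations between both tumors of a mouse ran from -0.43 to 0.61, and 2 of 6 tumors correlated best with their own mouse. Intervals and floors (3 counts over a group) cover counting error only. CPM is not corrected for gene length, so levels were not compared between genes. Promoter windows came from RefSeq (GRCm38.p6).

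The transporters and the other gene lists were chosen with earlier results of these data known. Named were SLC7A5, SLC3A2 and SLC1A5, the 5 transporters with the largest rise and fall in each comparison, others that passed within their role, and of the other lists the 2 called genes with the largest change in a comparison, from which those given were taken. TFRC, ASNS and the cell type markers were named for their levels. One transporter that was tested and counted is not reported here by name.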

Additional observations from a re-analysis of the deposited data

Results flagged for a closer look

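A library was singled out where its distance to the nearest library of its group was a large part of the group's range (Dixon's 95% limit). Among 121 groups of libraries in which a transporter reached 1 CPM there were 25 such values, each the highest of its group. The limit flags about 1 in 20 groups of independent, normally distributed values. CPM values range widely within a group and the transporters share the same libraries, so the 25 cannot be set against that rate. The rate over all profiles was not counted. Of these, 23 were tumor and 2 control libraries.

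The spleen tumor of mouse 1616 gave 12 of them. It held 1288 CPM of SLC7A5, 1551 of SLC3A2, 158.5 of SLC7A6 and 151.8 of SLC7A7, the pairing light and heavy chains. It held 392.8 CPM of SLC7A1 and 169.1 of SLC7A3, the arginine carriers. For glutamine and small neutral amino acids it held 484.6 CPM of SLC1A5, 73.8 of SLC1A4 and 878 of SLC38A2. For glutamate and cystine it held 8.49 CPM of SLC1A1, 42.1 of SLC7A11 and 3.5 of SLC3A1.

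The MLN tumor of mouse 1611 gave 4, with 79.99 CPM of SLC7A11, 34.1 of SLC7A2, 2.35 of SLC1A2 and 2.31 of SLC6A12. The MLN tumor of mouse 1609, the erythroid-rich library of its site, gave 3, with 11.8 CPM of SLC38A5, 6.13 of SLC6A20 and 2.06 of SLC6A4.

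Single values were 16.0 CPM of SLC1A3 in the spleen tumor of mouse 1613, 1.33 CPM of SLC38A3 in the spleen tumor of mouse 1615 and 4.82 CPM of SLC7A2 in the spleen tumor of mouse 1614. The MLN tumor of mouse 1613 held 111 CPM of SLC38A9. Among controls, activated library 3 held 39.7 CPM of SLC38A9 and quiescent library 3 held 105.9 CPM of SLC43A2.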

How the results depend on the processing

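Of 3138 alternative values for single transporters, 2959 kept their call as higher, lower or not passed (those not passed could change sign). Of the rest, 124 lost a call, 47 gained one and 8 reversed, which here means a call lost or gained together with a change of sign. None of the 8 passed in both directions. Calls held in every alternative for 17 of 27 transporters in tumor against quiescent, 15 of 28 in tumor against activated and 17 of 25 in activated against quiescent cells. The number lower in tumors than in quiescent cells went from 2 to 1 with DESeq2's size factors, library totals, DESeq2, spleen tumors only, 14 independent libraries and without the erythroid-rich libraries (chosen after seeing the data), and to 6 under quantile normalization. Quantile normalization also gave 13 higher in tumors than in activated cells and 7 lower in activated than in quiescent cells. Spleen tumors alone and 14 independent libraries each gave 5 lower in tumors than in activated cells. Leaving out 1 mouse or control library gave 20 to 25 higher and 1 to 2 lower (tumor against quiescent), 20 to 22 and 7 to 10 (tumor against activated), 10 to 12 and 10 to 13 (activated against quiescent), and 0 between tumor sites. The cause of these shifts was not tested.

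Under quantile normalization SLC1A2 (-1.42), SLC3A1 (-1.33) and SLC7A14 (-1.37) changed sign and gained a call in tumor against quiescent cells. SLC38A3 (-0.0061), SLC3A1 (-0.86), SLC6A12 (-0.31) and SLC7A10 (-0.17) changed sign and lost their call in tumor against activated cells. SLC6A20, which had not passed against activated cells, changed sign to -1.79 and passed without the erythroid-rich libraries.

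With the replicate number as a block, activated against quiescent cells gave 17 higher and 11 lower. That fit held only control libraries of the 4 numbers found in both groups, without tumors, and tested 12213 profiles. Over all profiles it called 4239 higher and 4304 lower, against 3027 and 4036 in the main fit. The part of the block itself in this shift was not tested. The replicate numbers are not shown to pair the samples (1 of 4 correlated best with its own number). The mouse as a block gave 0 higher and 0 lower between MLN and spleen tumors and changed no call. Ratios that rest on 1 to 3 counts in a group, as for SLC7A10 and SLC6A12, have wide counting intervals.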
